A study of Bos taurus with 8 samples.

Results

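Bta-miR-148a, bta-miR-148b and bta-miR-152 were followed in the small RNA of rumen fluid of 4 non-lactating, ruminally cannulated Holstein cows. They were chosen by name, as the bovine entries of the miR-148 and miR-152 family, and are 3 of the 565 mature miRNA entries listed over the 8 libraries. All 3 were listed in each library and belonged to the 377 entries that reached 10 reads in at least 1 library. Each cow was sampled on day 7 of a forage diet without concentrate (0%) and again on the first day of a high-grain (HG) diet with 65% concentrate, 4 h after the morning feeding. This gave 4 libraries per diet, and libraries with the same number on both diets were taken as 1 cow. The HG samples followed a step-wise change of feed in the same animals, so diet and time cannot be told apart. The fluid was drawn from the ventral sac of the rumen, and a library held whatever host cells and free RNA the fluid carried. In such a mixed sample, fewer cells of a type and less RNA per cell cannot be told apart.

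A miRNA guides the silencing machinery to messenger RNAs that pair with its seed, the bases near its 5′ end, and the members of a seed family share that stretch and therefore many targets. The miR-148 and miR-152 family is best known for acting on DNMT1, the enzyme that copies DNA methylation to the new strand after replication. MiR-148a is in addition a major miRNA of liver and of milk, including cow's milk, where it is carried in vesicles and fat globules. The cows studied here gave no milk.

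The 3 miRNAs come from separate loci. Bta-miR-148a lay on chromosome 4 of the bovine assembly UMD3.1 from 70414294 to 70414315 (plus strand), bta-miR-148b on chromosome 5 from 25849817 to 25849838 (minus strand), and bta-miR-152 on chromosome 19 from 39081217 to 39081238 (plus strand). Each entry spanned 22 bases, so that levels of the members refer to equal lengths. In the gene table of the newer assembly ARS-UCD2.0, used here for names and neighbours alone, MIR148B lies within COPZ1 and MIR152 within COPZ2, genes that encode the zeta subunits of the coatomer. MIR148A lies outside any protein-coding gene, between NFE2L3 and NPVF, and NFE2L1 is the coding neighbour of MIR152 on one side. MIR148D overlaps MIR148A and MIR148C overlaps MIR152 in the same table, but 0 entries with the names miR-148c or miR-148d were listed in the libraries.

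Reads were assigned to the members with little overlap among them. The human entry hsa-miR-148a-3p held the same reads as bta-miR-148a in 8 of 8 libraries, being the same mature miRNA under another name, and was not counted again. Bta-miR-148a and bta-miR-148b shared 2 reads each in forage replicates 2, 3 and 4 and 0 reads in the other libraries. All reads of bta-miR-152 were its own. The opposite arm of the miR-148a hairpin, hsa-miR-148a-5p (chromosome 4, 70414256 to 70414277), held 35 reads over the 8 libraries, against 8198 for the arm of bta-miR-148a. It made up 0.425% of the reads of both arms. Opposite arms of miR-148b and miR-152 were among 0 of the listed entries, and the tables list an entry only from 2 reads upwards.

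The libraries held 300116 to 522804 miRNA reads, which were 6.67% to 29.3% of all their reads. HG replicate 2 stood apart from the other 7 libraries in its composition, and values without it are therefore given beside the comparisons of the diets and of the cows. Levels are given as RPM, the reads of an entry scaled to a fixed number of miRNA reads per library. Their 95% Wilson intervals hold the error of counting alone, because copies of a molecule made by PCR were counted as separate reads.

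The order of the members was the same in every library, with bta-miR-148a highest, bta-miR-148b next and bta-miR-152 lowest, and their ranges over the 8 libraries did not overlap. Together they held 11950 reads, or 0.371% of all miRNA reads. By total reads they ranked 57, 95 and 127 among the 268 bovine entries. The ranks were 53 to 59 for bta-miR-148a, 88 to 99 for bta-miR-148b and 108 to 132 for bta-miR-152 in single libraries. Over all libraries there were 2.86 reads of bta-miR-148a for each read of bta-miR-148b and 9.24 for each read of bta-miR-152.

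Bta-miR-148a, the most abundant member, stood at 2560, 2561, 2425 and 2594 RPM in forage replicates 1 to 4. On the HG diet it stood at 2552, 2713, 2628 and 2376 RPM, with the lowest value in replicate 4 and the highest in replicate 2. The diets overlapped, with means of 2535 ± 75.1 RPM (SD, n = 4) on forage and 2567 ± 144 RPM (SD, n = 4) on HG, or 2519 ± 130 RPM (SD, n = 3) on HG without replicate 2. It was higher on HG in 2 cows and lower in 2.

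Bta-miR-148b stood at 892, 826, 844 and 898 RPM in forage replicates 1 to 4 and at 833, 1062, 901 and 902 RPM in HG replicates 1 to 4. Only HG replicate 2 lay outside the range of 826 to 902 RPM that held the other 7 libraries. The means were 865 ± 35.4 RPM (SD, n = 4) on forage and 924 ± 97.2 RPM (SD, n = 4) on HG. Without HG replicate 2 the HG mean was 879 ± 39.4 RPM (SD, n = 3).

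Bta-miR-152, which outside ruminants is also well described as a repressor of DNMT1, had 84 to 126 reads per library on forage and 73 to 201 on HG. It stood at 223, 216, 276 and 253 RPM in forage replicates 1 to 4 and at 243, 598, 228 and 234 RPM in HG replicates 1 to 4. HG replicate 2 was far above all other libraries, among which the diets overlapped. The means were 242 ± 27.9 RPM (SD, n = 4) on forage and 326 ± 182 RPM (SD, n = 4) on HG, and the HG mean without HG replicate 2 was 235 ± 7.77 RPM (SD, n = 3).

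**Figure D1:**
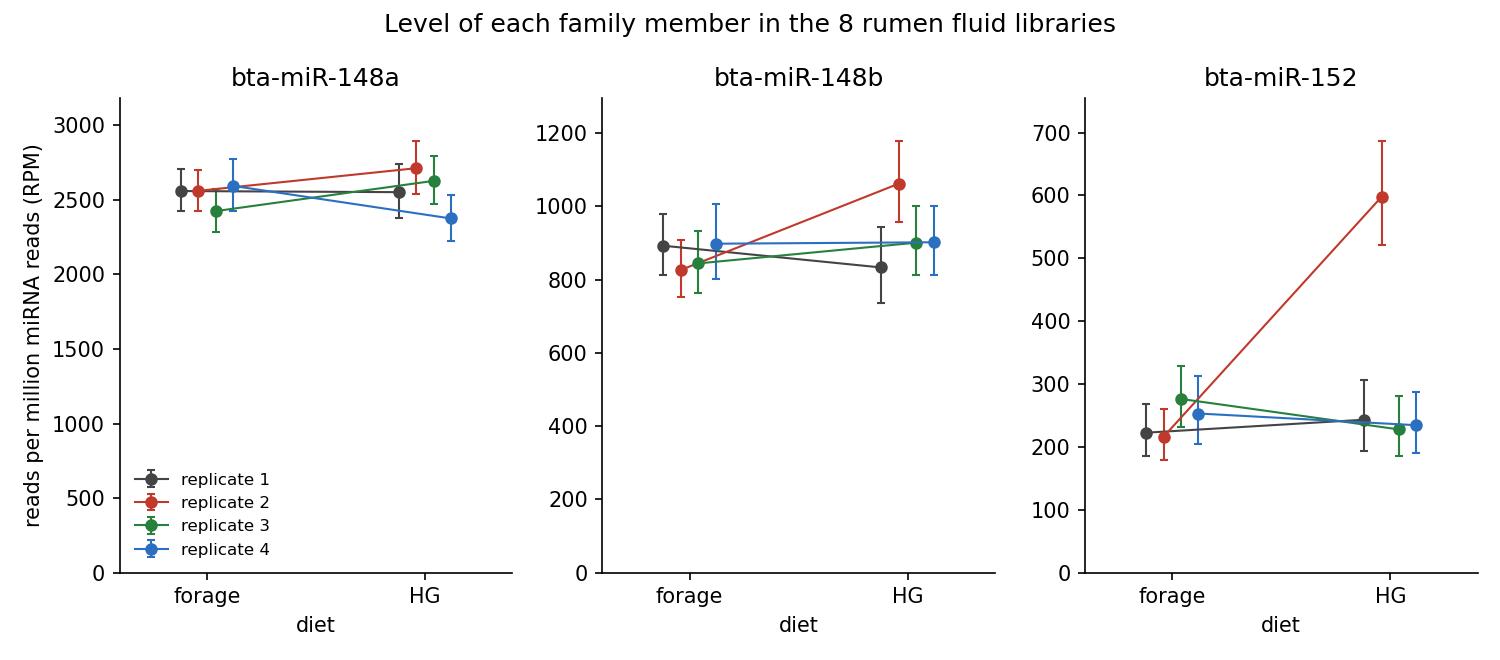
Level of bta-miR-148a, bta-miR-148b and bta-miR-152 (RPM of miRNA reads, each panel from 0) on the forage and HG diet, with 95% Wilson intervals as bars and lines that join the libraries of the same number. The 3 miRNAs stayed within narrow ranges except in HG replicate 2, where bta-miR-152 reached 598 RPM against 216 to 276 RPM in the other 7 libraries.

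Over all 8 libraries, chi-square over its degrees of freedom, which is near 1 when libraries differ by counting error only, was 1.74 for bta-miR-148a, 2.27 for bta-miR-148b and 20.8 for bta-miR-152. After HG replicate 2 was left out for its values, it was 1.35, 0.572 and 0.816, respectively, which describes the other 7 libraries and is no test of the spread between cows. Among these 7 libraries the highest level exceeded the lowest by a factor of 1.11 for bta-miR-148a, 1.09 for bta-miR-148b and 1.28 for bta-miR-152.

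HG replicate 2 held bta-miR-152 at 2.5 times the mean of the other 7 libraries, bta-miR-148b at 1.22 times and bta-miR-148a at 1.07 times. The interval of bta-miR-152 in this library, 521 to 686 RPM, overlapped the intervals of 0 of the 7 other libraries, which reached at most 329 RPM. For bta-miR-148b the interval (957 to 1178 RPM) overlapped 4 of 7, and for bta-miR-148a (2543 to 2895 RPM) 6 of 7. On the log2 scale the shift of bta-miR-152 was 1.32, the fifth highest among the 202 bovine entries with at least 20 reads on average. The shift was 0.29 for bta-miR-148b (rank 48) and 0.10 for bta-miR-148a (rank 61). The median of these entries was −0.19, and 9 of them (4.46%) were more than 2 times higher in HG replicate 2. Bta-miR-148a, the most abundant member, was just above its range in this library, at 2713 RPM against 2376 to 2628 RPM elsewhere. TMM scaling moves all entries of this library alike relative to the others. After it, bta-miR-148a stood there at 2030 CPM (TMM-scaled counts) against 1548 to 1695 CPM elsewhere.

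**Figure D2:**
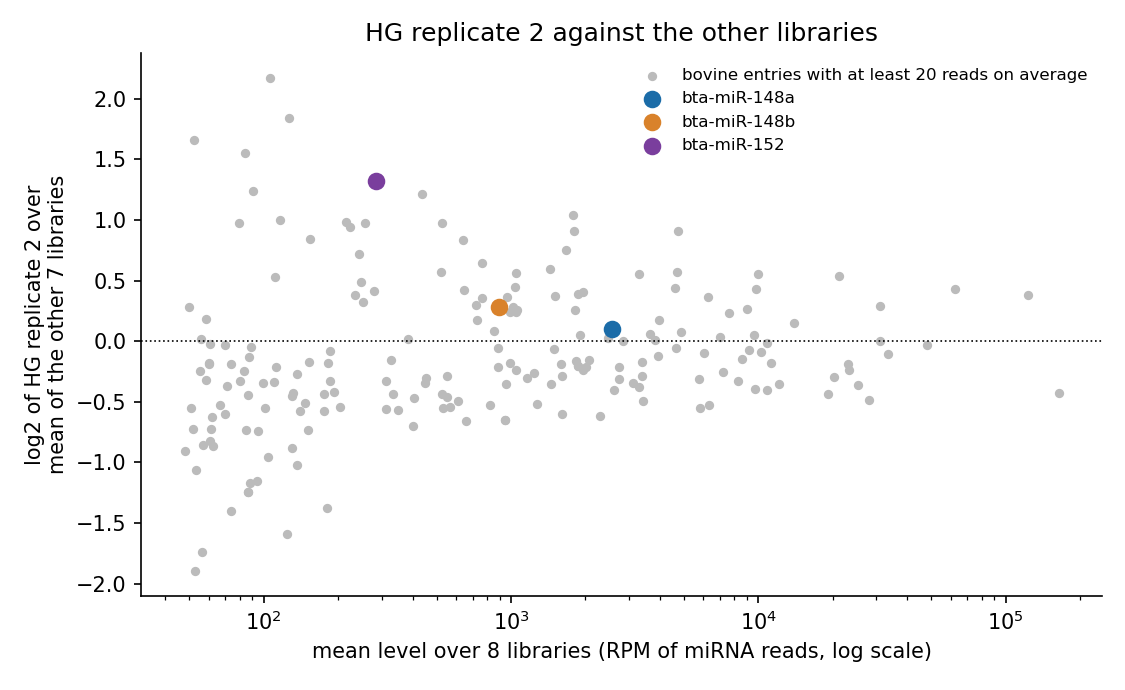
Log2 of the level in HG replicate 2 over the mean of the other 7 libraries (with 1 RPM added to each) against the mean level (RPM of miRNA reads, log scale) for 202 bovine entries with at least 20 reads on average. Bta-miR-152, at 1.32, is among the highest points, whereas bta-miR-148b at 0.29 and bta-miR-148a at 0.10 lie near the bulk of the entries.

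Lists of miRNAs in general use as cell type markers moved in the same library. The summed level of 5 miRNAs of stroma and smooth muscle was 89700 RPM in HG replicate 2 and 64939 to 69990 RPM in the other 7 libraries, with 3 of the 5 above all other libraries. The 6 epithelial miRNAs that were listed, of 7 in the list, summed to 27955 RPM against 20407 to 21317 RPM, with 4 of them above and 1 below all other libraries. The 3 erythrocyte miRNAs summed to 149756 RPM against 198457 to 206066 RPM, and all 3 were below all other libraries. The 5 leukocyte miRNAs summed to 17201 RPM against 21582 to 22180 RPM, with 4 below and 1 above. None of the listed markers was at 0 in any library, and their part in the level of bta-miR-152 was not tested. In the other HG libraries the erythrocyte sum was 198457 to 201656 RPM, close to the 202018 to 206066 RPM of the 4 forage libraries. The sums were not tested for the diet. The other 3 lists overlapped between the diets without HG replicate 2, with 21582 to 22100 RPM on HG and 21977 to 22180 RPM on forage for leukocytes, 20407 to 21317 and 20706 to 21095 RPM for epithelium, and 65089 to 69990 and 64939 to 67712 RPM for stroma and smooth muscle.

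Whether the diet shifted the family was tested by the quasi-likelihood method of edgeR, in a model that held the cow as a block and scaled libraries by TMM. P-values were adjusted by Benjamini-Hochberg across all 377 entries. With 0.05 as the threshold, the test called 0 of the 3 members and 0 of all 377 entries (0%), of which 9 had an unadjusted p under 0.05. DESeq2 on the same counts likewise called 0 entries, of which 3 had an unadjusted p under 0.05. From forage to HG, the log2 fold change of bta-miR-148a was 0.07 with a standard error of 0.08 and a 95% interval of −0.13 to 0.26 (edgeR adjusted p = 0.830). That of bta-miR-148b was 0.14 (standard error 0.12, 95% interval −0.16 to 0.45), with an edgeR adjusted p of 0.788. For bta-miR-152 it was 0.37 (standard error 0.35, 95% interval −0.49 to 1.24), with an edgeR adjusted p of 0.796, and the miRNA was higher on HG in 2 cows and lower in 2.

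The intervals were narrower without HG replicate 2, a library left out for its values. With the cow as a block, forage replicate 2 then had no partner, so that these fold changes rest on the cows other than cow 2. The log2 fold change of bta-miR-148a was then 0.00084 (95% interval −0.10 to 0.10) and that of bta-miR-148b 0.0043 (95% interval −0.14 to 0.15). For bta-miR-152 it was −0.10 (95% interval −0.36 to 0.17), so that its direction turned. In this fit 2 of the 376 entries were called, neither of which belonged to the family.

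**Figure D3:**
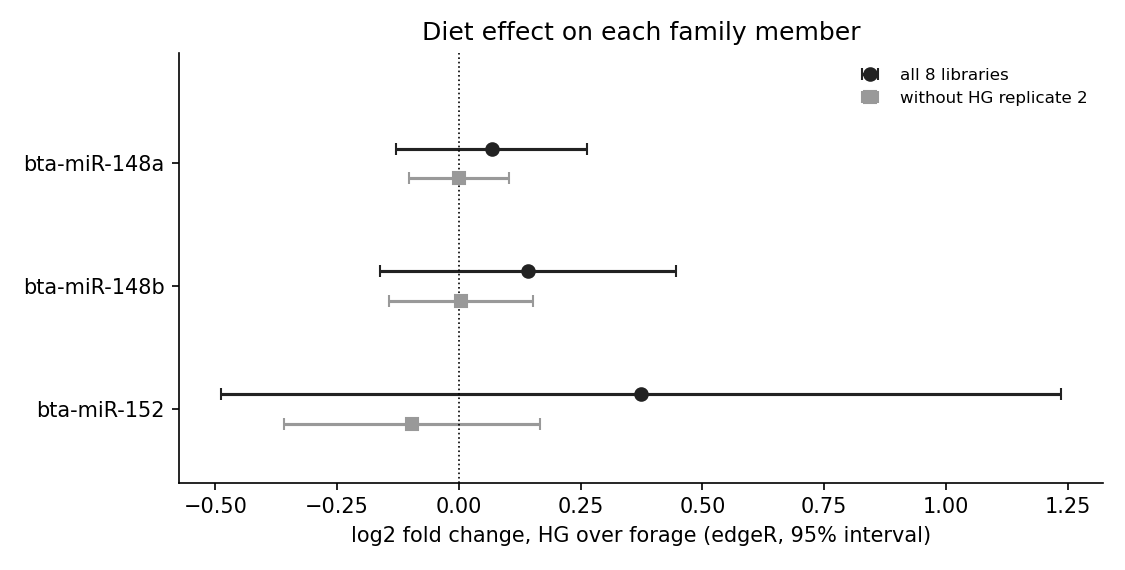
Log2 fold change from forage to HG with its 95% interval (edgeR, cow as block) for the 3 members, from all 8 libraries (circles) and without HG replicate 2 (squares). All 6 intervals include 0, and that of bta-miR-152 narrows from −0.49 to 1.24 to −0.36 to 0.17 without this library.

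These changes are relative to the other miRNAs. Relative to all reads of a library, the log2 ratio of the HG to the forage mean was −0.32 for bta-miR-148a, −0.27 for bta-miR-148b and −0.06 for bta-miR-152. With HG replicate 2 left out, these were −0.16, −0.15 and −0.22. The median of all entries with reads on both diets was −0.35 on this scale (−0.18 without that library) and −0.02 on the scale of miRNA reads (0.0064 without it). Relative to these medians the members stood at 0.04, 0.08 and 0.29 by all reads and at 0.04, 0.12 and 0.45 by miRNA reads. Without HG replicate 2 they stood at 0.01, 0.03 and −0.04 by all reads and at −0.02, 0.02 and −0.05 by miRNA reads, so that the direction of bta-miR-152 turned on both scales and that of bta-miR-148a on the scale of miRNA reads.

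The same model also asks whether cows differed in their level of the family on both diets. In edgeR's quasi-likelihood F test over the cow terms, 0 of the 3 members and 0 of 377 entries (0%) had an adjusted p under 0.05, with 9 entries at an unadjusted p under 0.05. The adjusted p was 0.901 for each of the 3 members, and the unadjusted p was 0.364 for bta-miR-148a, 0.538 for bta-miR-148b and 0.324 for bta-miR-152 (edgeR). Without HG replicate 2 the adjusted p was 0.961, 0.906 and 0.856, respectively (edgeR), and 4 of 376 entries were called, none of them a member. The within-cow log2 ratios of HG to forage RPM of bta-miR-152 were 0.13, 1.47, −0.28 and −0.11 in cows 1 to 4. Those of bta-miR-148a were −0.0043, 0.08, 0.12 and −0.13, and those of bta-miR-148b −0.10, 0.36, 0.09 and 0.0062.

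Since a ratio of members within a library needs no scaling between libraries, the make-up of the family was compared in addition. On forage, bta-miR-148a made up 69.6% ± 1.11 (SD, n = 4) of the family's reads, bta-miR-148b 23.7% ± 0.581 and bta-miR-152 6.65% ± 0.835. On HG the shares were 67.5% ± 3.83, 24.2% ± 1.12 and 8.28% ± 3.61 (SD, n = 4). In the 7 libraries other than HG replicate 2 they were 67.6% to 71.1% for bta-miR-148a, 22.9% to 25.7% for bta-miR-148b and 6.0% to 7.79% for bta-miR-152. HG replicate 2 was the exception, with 62.0%, 24.3% and 13.7%, respectively, so that bta-miR-152 was above and bta-miR-148a below its range in the other libraries.

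**Figure D4:**
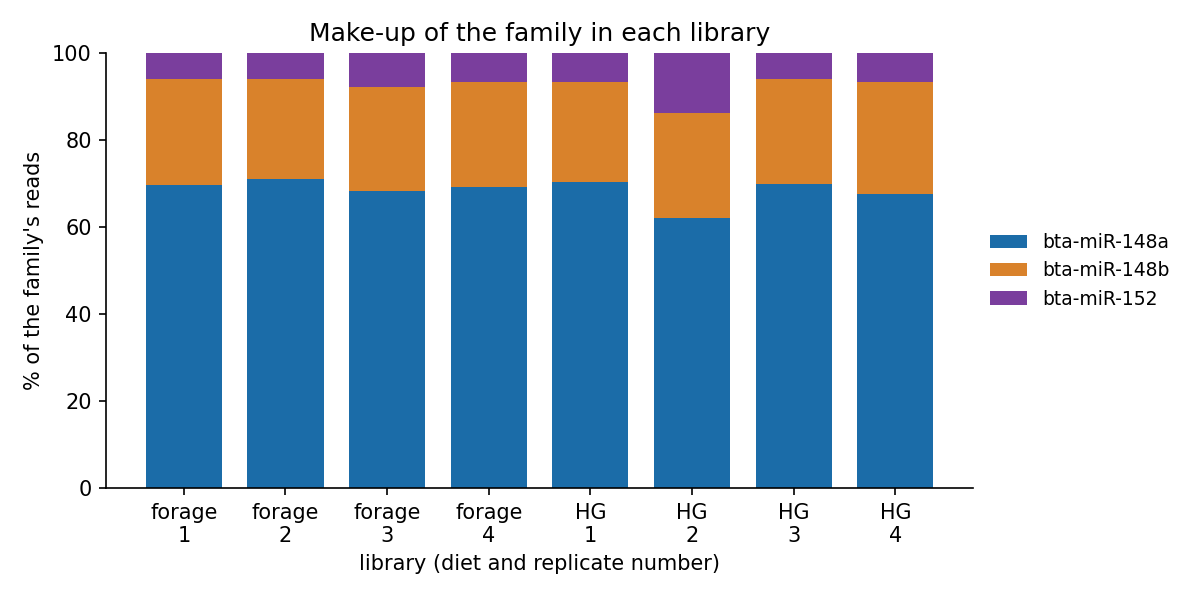
Share of the family's reads (%) held by bta-miR-148a, bta-miR-148b and bta-miR-152 in each of the 8 libraries. Bta-miR-152 held 13.7% in HG replicate 2 and at most 7.79% in the other 7 libraries, while bta-miR-148b held 22.9% to 25.7% throughout.

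The log2 ratio of bta-miR-148a to bta-miR-148b was 1.55 ± 0.05 (SD, n = 4) on forage and 1.48 ± 0.12 (SD, n = 4) on HG. Its change within cows was −0.07 (SD over cows 0.17), or −0.0053 without cow 2. An exact two-sided permutation test over the signs of the 4 within-cow changes, whose smallest p is 2 of 16 sign patterns and thus above 0.05, gave p = 0.5. The log2 ratio of bta-miR-148a to bta-miR-152 changed by −0.28 (SD over cows 0.77, exact permutation p = 0.625) and was lower on HG in 3 of 4 cows. The ratio of bta-miR-148b to bta-miR-152 changed by −0.21 (SD over cows 0.65, exact permutation p = 0.75) and was lower in 2 of 4. The within-cow change in cow 2 was −1.38 for the ratio of bta-miR-148a to bta-miR-152 and −1.11 for that of bta-miR-148b to bta-miR-152, and without cow 2 both directions turned, to 0.082 and 0.087. Adjusted over the 3 pairs, each exact permutation p was 0.75. Each change was smaller than its spread between cows.

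The tables also count the distinct read sequences behind an entry, that is the variants of a mature miRNA that differ in length or by single bases. Bta-miR-148a was read as 27, 27, 27 and 24 distinct sequences in forage replicates 1 to 4 and as 17, 22, 24 and 22 in HG replicates 1 to 4. Bta-miR-148b had 10 to 15 on forage and 9 to 11 on HG, and bta-miR-152 had 10 to 12 and 7 to 11. The number depends on depth, and the forage libraries held 331864 to 522804 miRNA reads and the HG libraries 300116 to 390774, so that these numbers do not compare the diets.

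In HG replicate 2 the 201 reads of bta-miR-152, its most in any library, fell into 7 distinct sequences, its fewest in any library, which is 28.7 reads per sequence against 8.27 to 10.5 in the other 7 libraries. Bta-miR-148a (41.5 reads per sequence, others 35.9 to 49.6) and bta-miR-148b (35.7, others 25.7 to 35) stood in or just above the range of their other libraries. Few distinct sequences were general in this library, which held 4147 over all bovine entries against 4386 to 5914 in the others. Of the 202 entries with at least 20 reads on average, 77 (38.1%) had fewer distinct sequences there than in any other library and 49 (24.3%) had more reads per sequence than in any other. Over all 268 bovine entries, HG replicate 2 had 81.8 reads per distinct sequence and the other libraries 69.0 to 89.1. Which sequences these were is not given by the counts.

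**Figure D5:**
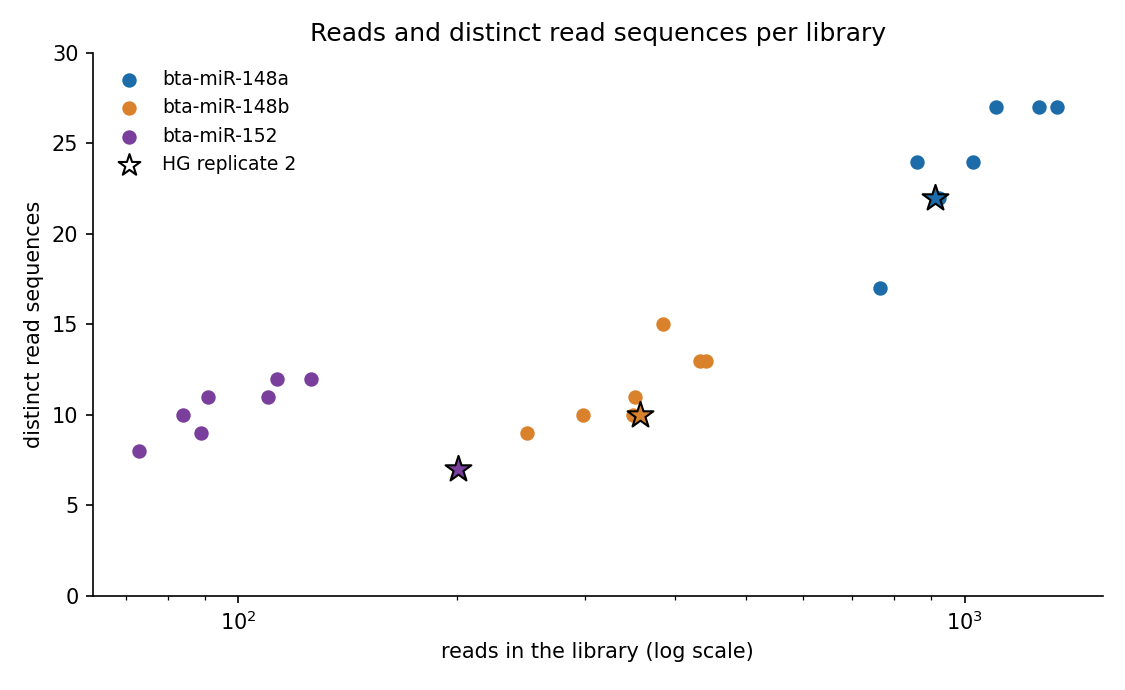
Number of distinct read sequences against the number of reads (log scale) for each member in each library, with stars for HG replicate 2. The star of bta-miR-152, at 201 reads and 7 sequences, lies below its other libraries, which hold 73 to 126 reads and 8 to 12 sequences.

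For each member, the bovine entries with the most similar profile were sought among the 202 entries with at least 20 reads on average, by the root mean square difference of centred log2 CPM (TMM-normalized) over the 8 libraries. For bta-miR-148a these were bta-miR-30e-5p (0.05), bta-miR-23a (0.05) and bta-miR-200c (0.05), where the median over all other entries was 0.20. For bta-miR-148b they were bta-miR-29a (0.05), bta-miR-24-3p (0.05) and bta-miR-30a-5p (0.05), with a median of 0.23. With HG replicate 2 left out, the differences of these 6 entries were 0.05 to 0.06 and the medians over all other entries 0.12 for both members. Bta-miR-148a and bta-miR-148b differed from each other by 0.09. Counting error adds to all such differences and is larger where reads are few, and its part was not tested. These 6 entries held 11755 to 99862 reads in total, more than either member.

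Bta-miR-152 was nearest to bta-miR-31 (0.16), bta-miR-199a-5p (0.16) and bta-miR-378 (0.17), with a median of 0.53 over all other entries. Its difference was 0.43 from bta-miR-148a and 0.36 from bta-miR-148b. Each of the 3 nearest entries was likewise highest in HG replicate 2, and bta-miR-199a-5p belongs to the stroma list above. Bta-miR-31, a miRNA of squamous epithelium, stood at 2428 CPM there and at 959 to 1081 CPM in the other libraries. Bta-miR-199a-5p, a miRNA of fibroblasts, stood at 688 CPM against 276 to 326 CPM. Bta-miR-378, known from fat and oxidative metabolism, stood at 5982 CPM against 2673 to 2842 CPM. Without HG replicate 2 these differences were 0.11 to 0.13, near the median of 0.14, so that the likeness rests on this library. The difference of bta-miR-152 from bta-miR-148a was then 0.14 and that from bta-miR-148b 0.13, no larger than from bta-miR-31 (0.13), and that between bta-miR-148a and bta-miR-148b 0.07.

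The family was also set beside other miRNAs that are described to act on DNA methyltransferases. Of 8 such miRNAs, namely the miR-29 members that repress DNMT3A and DNMT3B, bta-miR-143, which represses DNMT3A, and others that act on DNMT1, 8 were detected. The diet test called 0 of the 8 in either direction and 0 of all 377 entries (edgeR). Log2 fold changes of the 8 were −0.01 to 0.28 with a median of 0.09, where the median of all 377 entries was 0.03 and that of the 3 members 0.14. Without HG replicate 2 the medians were 0.02 for the 8 miRNAs, 0.0043 for all entries and 0.00084 for the members. The most abundant of the 8 were bta-miR-143, with a log2 fold change of 0.17 (standard error 0.11), bta-miR-29a with 0.11 (standard error 0.08) and bta-miR-126-3p, which acts on DNMT1, with 0.22 (standard error 0.14). These were 0.03, 0.0054 and 0.05 without HG replicate 2, whereas bta-miR-29b stood at 0.21 (0.28 with it) and bta-miR-29c at 0.14 (0.07 with it). Bta-miR-143 is also part of the list for stroma and smooth muscle.

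Of 15 other miRNAs known to be abundant in bovine milk, all 15 were detected in rumen fluid. The diet test called 0 of them and 0 of all 377 entries (edgeR). Log2 fold changes of the 15 were −0.17 to 0.20 with a median of 0.06, and 13 of the 15 were above 0. Of all 377 entries, 210 were above 0, with a median of 0.03. With HG replicate 2 left out, the 15 stood at −0.09 to 0.05 with a median of 0.01, and 9 of the 15 were above 0. Of the 376 entries in that fit, 197 were above 0, with a median of 0.0043. In this list 3 miRNAs (bta-miR-200a, bta-miR-200c and bta-miR-141) are also in the epithelial list. Bta-miR-148a, at 2535 RPM on forage, was far below the most abundant of them, bta-miR-21-5p at 118471 ± 1085 RPM, bta-miR-26a at 47881 ± 255 RPM and bta-let-7a-5p at 31036 ± 522 RPM (SD, n = 4, forage). It was near bta-miR-99a-5p at 2535 ± 52.7 RPM and above bta-miR-141 at 1581 ± 110 RPM and bta-miR-375, a miRNA of endocrine cells, at 707 ± 81.9 RPM on the same diet.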

How the data were processed

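Small RNA of rumen fluid was sequenced as 1 library per cow and diet. Before deposit, the authors removed adapters (Skewer), filtered reads on quality and length and counted the rest with sRNAbench, which mapped them by Bowtie, with mismatches allowed, to UMD3.1 and to miRBase entries of cattle and humans. The deposited tables give, per mature miRNA, a read count (a read mapping to several entries counted in full at each), a count of distinct sequences, and an expected count, in which the read is divided among its entries. The authors' RPM is relative to all reads, while the RPM per miRNA reads, also deposited and treated as a score, has miRNA reads as its base. Both served here to recover the library totals. The deposited table of normalized values was not used.

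An entry was tested if any library held 10 or more of its reads. Diet and cow were tested on the read counts of the whole table with edgeR 4.0.16 in R 4.3.3 (TMM, then glmQLFit and glmQLFTest in a model of cow and diet, with a two-sided diet test). DESeq2 1.42.0 was an alternative. The diet test was checked on simulated data that held no cow effect and no outlying library. The check therefore does not describe the power of the test in these data. The depth was 300116 to 522804 miRNA reads per library, and intervals are 95% Wilson intervals. The exact tests and summaries were run in Python 3.11.15 (scipy 1.17.1, pandas 2.3.3, numpy 2.4.6). The pairing rests on the design and on the numbers of the labels. Deviations of same-numbered libraries from their diet mean correlated across 283 entries at −0.12 to 0.06, and those of other numbers at −0.23 to 0.23, so these values do not show it. Named were the 3 members, entries of the same hairpins, the 3 bovine entries of most similar profile per member that share no reads with it, and up to 3 examples per list with the most reads. Bta-miR-29b, bta-miR-29c, bta-miR-99a-5p, bta-miR-200a, bta-miR-141 and bta-miR-375 were named after their values were seen. Members, lists and tests were chosen with earlier results of these data known. Normalization, filter, kind of count, block and left-out libraries were varied, of which the fits without the block and without HG replicate 2 together and the levels and the cow test without HG replicate 2 alone were added after seeing the data. The distinct sequences, the chi-square ratios and the comparison of HG replicate 2 with the other libraries were likewise looked at after the values were known.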

Additional observations from a re-analysis of the deposited data

Results flagged for a closer look

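In groups of 4 libraries, a value was singled out when its distance to the nearest other library exceeded Dixon's 95% critical share of the range of the group. Chance alone does this in about 1 of 20 groups, and 24 groups were examined, so that single cases are to be expected. The level of bta-miR-152 in HG replicate 2, 598 RPM, stood apart from the other HG libraries, at 0.958 of the range. The log2 ratio of bta-miR-148a to bta-miR-152 was lowest in the same library, at 2.18, against 3.34 to 3.53 in the other HG libraries. These are the same reads seen from 2 sides.

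The other cases rest on small differences. The log2 ratio of bta-miR-148a to bta-miR-148b was highest in forage replicate 2, at 1.63, against 1.52 to 1.53 in the other forage libraries. The number of distinct sequences of bta-miR-148a was lowest in forage replicate 4, at 24 against 27 in each of the others, and this was also the forage library with the fewest miRNA reads. Hsa-miR-148a-5p had 3 distinct sequences in forage replicate 3, where it held 12 reads, against 1 in each of the other forage libraries with 2 to 4 reads.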

How the results depend on the processing

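Over 12 alternatives, the adjusted p of the diet effect was 0.801 to 0.9997 for bta-miR-148a, 0.687 to 0.999 for bta-miR-148b and 0.678 to 0.999 for bta-miR-152 (edgeR or DESeq2), and 0 members were called in any. The log2 fold change of bta-miR-148b stayed positive, at 0.0036 to 0.21.

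Leaving out 1 cow gave a diet effect on bta-miR-148a of −2.0e-05 (without replicate 2) to 0.12. For the diet effect on bta-miR-152 it gave −0.10 (without replicate 2) to 0.59, and without HG replicate 2 alone, where cow 2 adds nothing to the diet effect, −0.10. For the log2 ratio of bta-miR-148a over bta-miR-152 it gave −0.51 to 0.082 (without replicate 2), and for that of bta-miR-148b over bta-miR-152 −0.41 to 0.087 (without replicate 2).

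Without the replicate block, the diet effect was 0.07 on bta-miR-148a, 0.15 on bta-miR-148b and 0.51 on bta-miR-152, with 0 entries called, and exact permutation of libraries gave p = 0.343, 0.571 and 0.629 for the 3 ratios of members. With no replicate block and without HG replicate 2, the diet effect was −0.011 on bta-miR-148a and −0.038 on bta-miR-152, and the log2 ratio changed by 0.025 for bta-miR-148a over bta-miR-152 and by 0.057 for bta-miR-148b over bta-miR-152.

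Without replicate 2 and without HG replicate 2, fits whose diet effect rests on the same cows, the same 2 entries were called for the diet instead of 0. Both carry miR-2285 names, are outside the family and were listed in forage replicate 1 alone, with equal read counts, and with no replicate block and without HG replicate 2 the count was 0 (smallest edgeR adjusted p = 0.245). Entries called for the cow were 2 without replicate 2 and 4 without HG replicate 2. Relative to all reads, the log2 ratio of HG to forage means was −0.32 for bta-miR-148a, −0.27 for bta-miR-148b and −0.29 for the family total, with the median of all entries at −0.35. Without HG replicate 2 these were −0.16 for bta-miR-148a and −0.15 for bta-miR-148b, with the median at −0.18. The cause of these turns was not tested. Depth limits bta-miR-152 most, with 73 reads in its smallest library.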

Other observations

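The reading of bta-miR-152 in HG replicate 2 as many reads over few distinct sequences was looked for in the other entries that were more than 2 times higher in this library than in the mean of the other 7. Of these 9 bovine entries, 3 had fewer distinct sequences in HG replicate 2 than in any other library, and 6 did not. This is a share near that of all 202 entries examined, of which 77 (38.1%) had fewer in HG replicate 2. Few distinct sequences were thus not particular to the raised entries, and reads per sequence are not compared here. The 3 were bta-miR-152 (7 against 8 to 12), bta-miR-31 (14 against 16 to 25) and bta-miR-411a (3 against 4 to 6), the last of which was named after its values were seen.

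Hsa-miR-148a-5p, the opposite arm of bta-miR-148a, held 2 to 12 reads per library. Its highest level was 26.3 RPM (95% Wilson interval 15.1 to 46.0) in forage replicate 3, against 3.83 to 12.8 RPM in the other libraries, while bta-miR-148a in forage replicate 3, at 2425 RPM, was the lowest of the forage libraries.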
